A study of Mus musculus with 10 samples.

Results

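Livers in which Cd44 was targeted with guide 2 were set against livers in which it was targeted with guide 4. The choice follows the guide name that each sample label carries: 2 livers of guide 2 and 2 livers of guide 4, so 4 of the 10 livers measured. Cd44 encodes a cell surface receptor for hyaluronan. All mice were male. Per the labels, an adeno-associated virus of serotype 8 (AAV8) carried the Cas9 of Staphylococcus aureus behind the TBG promoter, which is active in hepatocytes, together with a guide RNA behind the U6 promoter. The 4 mice with a Cd44 guide received virus at 23 months of age and their livers were taken at 25 months. The reference livers came from mice whose genotype label is Rosa26-KO, a control edit at the Rosa26 locus: 3 old controls, also 25 months old and given virus at 23 months, and 3 young controls, 9 months old and given virus at 7 months. No liver without virus was among the samples. RNA was taken from whole liver, so transcripts of cells in which the TBG promoter is not active are part of every value.

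The sequences of guides 2 and 4 are not in the sources used here, and their cut sites were not analysed here. The labels do not say that livers of a group came from separate cages, litters or days, and the p-values below measure the spread between these livers only. Livers are numbered by accession order within a group, which pairs nothing. In whole-liver RNA, fewer cells of a type and less RNA per cell cannot be told apart.

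As background, 2 guides to 1 gene are used so that effects shared by both can be assigned to the targeted gene, while effects of 1 guide alone need a comparison like the present one. The programmes that came up in that comparison are well described in liver. Interferon-stimulated genes are switched on through JAK kinases and STAT and IRF factors, which bind an element called the interferon-stimulated response element in their promoters. NRF2 is a transcription factor that turns on detoxifying enzymes such as NAD(P)H quinone oxidoreductase and glutathione S-transferases, and the Cyp2a cytochromes P450 oxidise steroids, coumarin and nicotine. The acute-phase response is the secretion of plasma proteins such as serum amyloid A and haptoglobin by hepatocytes, driven by IL6 and STAT3, and the unfolded protein response raises chaperones of the endoplasmic reticulum.

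Total counts were 16443280 and 20703293 in the guide 4 livers and 20219744 and 15821198 in the guide 2 livers, within the range of 15821198 to 21710228 over all 10. Levels are given as CPM, the count divided by the library size in units of 1e6 reads and scaled by the trimmed mean of M values (TMM), and 3 counts, taken as the smallest amount that can be detected, correspond to between 0.131 and 0.198 CPM. No molecular identifiers were used. Floors and the counting intervals below hold for counting error alone, whereas a confidence interval comes from the fit and includes the spread between livers. The summed CPM of 19 hepatocyte genes, transcription factors and secreted proteins that define the cell, ranged from 122240 to 122444 in the guide 4 livers and from 126520 to 127343 in the guide 2 livers, and none of these genes was at 0. Albumin, the main plasma protein made by hepatocytes, lay at 61891 and 64229 CPM with guide 4 and at 65876 and 63390 CPM with guide 2. The names of the 2 guide 2 libraries follow each other directly, whereas the name of an old control library lies between those of the guide 4 libraries. The name of old control 3 lies apart from the run of the other names. Whether the order of preparation bears on any value was not tested.

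Cd44, the targeted gene (chr2:102811141-102901669, minus strand, GRCm38), was lower in value with guide 2 than with guide 4, and the difference did not pass the test. It lay at 18.9 and 29.0 CPM in the guide 4 livers and at 17.6 and 13.1 CPM in the guide 2 livers. The old controls held 14.2, 29.9 and 25.9 CPM and the young controls 16.7, 11.2 and 10.1 CPM. Both guide 2 livers were below both guide 4 livers, and all 4 lay within the range of the 6 controls. The log2 difference was -0.64 (SE 0.36, 95% confidence interval -1.45 to 0.16, unadjusted p = 0.106, adjusted p = 1 in edgeR's quasi-likelihood test with Benjamini-Hochberg adjustment over all genes). Against the old controls the log2 difference of Cd44 was -0.60 with guide 2 (adjusted p = 0.774) and 0.04 with guide 4 (adjusted p = 0.999). A count per gene sums all exons and a frameshift can leave it unchanged, so these counts do not measure editing. The control target, the noncoding gene Gt(ROSA)26Sor, lay at 12.3 and 13.8 CPM with guide 4 and at 9.41 and 9.79 CPM with guide 2, a log2 difference of -0.44 (SE 0.34).

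None of the genes that flank Cd44 on chromosome 2 passed the test between the guides. Of 9 tested members of this neighbourhood, Cd44 included, 0 had an unadjusted p under 0.05. Trim44, which encodes a tripartite motif protein, lay at 49.5 and 47.7 CPM with guide 4 and at 59.2 and 61.2 CPM with guide 2, a log2 difference of 0.31. Pdhx, a component of the pyruvate dehydrogenase complex, and Apip, an enzyme of methionine salvage, differed by 0.08 and 0.11 on the log2 scale. The widest difference among them was that of Ehf, an epithelial transcription factor near the detection limit, at 1.30, from 0.756 and 0.916 CPM to 1.6 and 2.56 CPM. Among 18 tested ligands, partners and processing enzymes of CD44, 1 had an unadjusted p under 0.05 in each direction, against a background of 2.23% of all genes tested in the higher direction and 2.17% in the lower. They were Hmmr, a hyaluronan receptor of dividing cells (0.581 and 0.567 CPM with guide 4, 2.31 and 1.52 CPM with guide 2), and Hyal1, a lysosomal hyaluronidase (42.6 and 61.9 CPM with guide 4, 33.8 and 29.3 CPM with guide 2).

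Across all genes, 3 of 14153 tested genes differed between the guides at an adjusted p under 0.05, which is 0.0212%, and all 3 were higher with guide 2. They were Cyp2a4 and Cyp2a5, a pair of cytochrome P450 genes of 1 cluster, and Spats2l, an interferon-responsive gene of the nucleolus and stress granules. At an unadjusted p under 0.05 there were 623 genes (4.4%), 316 of them higher with guide 2 and 307 lower. The number called differed between tools and sets of livers: DESeq2 called 74 genes, 46 of them higher with guide 2, a fit of the 4 guide livers alone called 36, and a fit of the 7 livers aged 25 months called 0, with an adjusted p of 0.0609 for each of the 3 genes. Without either guide 4 liver or either guide 2 liver in turn, edgeR also called 0, with the remaining lone liver assumed to vary like the other groups. It called 0 without young control 1, 5 without young control 2 or young control 3, and 8 without old control 1.

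The guide 2 livers stood apart from the 8 other livers in more genes than the guide 4 livers did. In 425 genes (3% of those tested) both guide 2 livers lay above all 8 others, and in 379 genes (2.68%) both lay below. The same counts for the guide 4 livers were 116 genes above (0.82%) and 154 below (1.09%). These counts carry no test. With CPM scaled to total counts in place of TMM, the guide 2 counts were 672 above and 226 below, so the balance of directions depends on the scaling. Against the old controls, which both comparisons share, 7 genes (0.0495%) passed the test with guide 2, all higher, and 0 (0%) with guide 4. At an unadjusted p under 0.05 the guide 2 comparison held 1007 genes (7.12%), 425 of them higher (3%) and 582 lower (4.11%). The 7 were Cyp2a4, Cyp2a5, Spats2l, Slc1a1, Ly6d, Oasl2 and Ly6a. The number of genes called in this comparison, which need not be the same genes, was 0 without guide 2 liver 1, 1 without guide 2 liver 2, either guide 4 liver, old control 1 or old control 2, 3 without old control 3 or young control 3, and 16 without young control 2. In the guide 4 comparison the smallest adjusted p was 0.981 in edgeR, with 554 genes at an unadjusted p under 0.05 (3.91%), and limma voom called 0 genes and DESeq2 1, Egr1. The unadjusted counts depended on the old controls. Without old control 1, 2 or 3 in turn, they were 1783, 469 and 1201 genes for guide 4. For guide 2 they were 2290, 824 and 1676 genes.

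**Figure D1:**
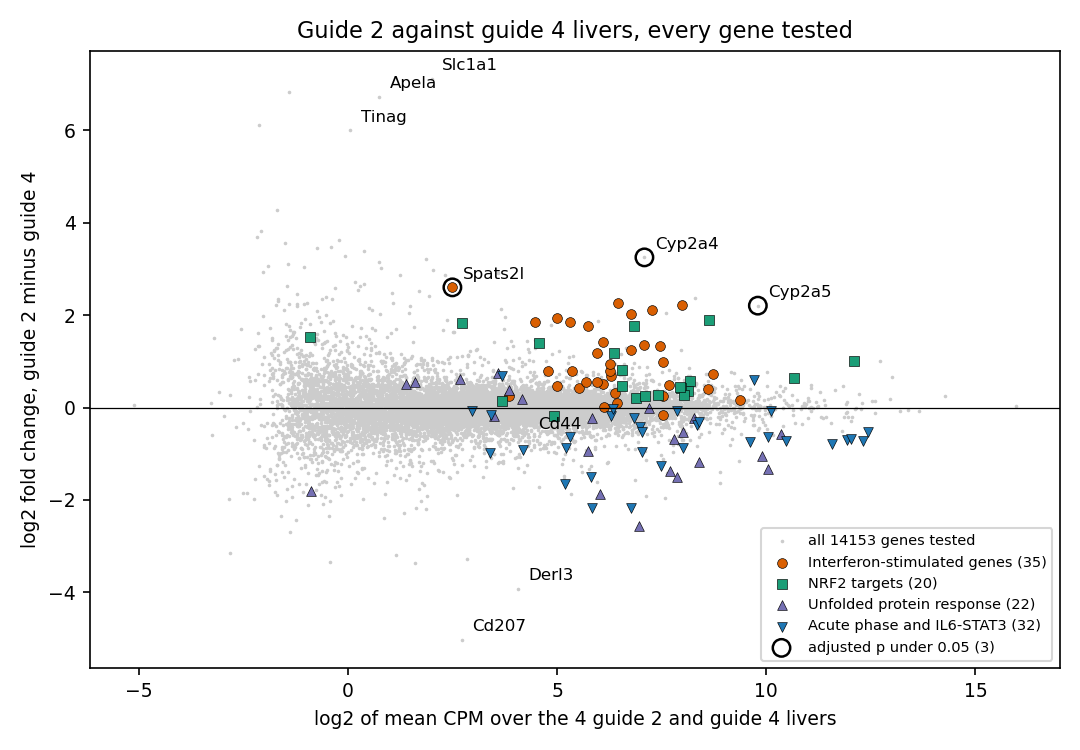
Each point is 1 of the 14153 genes tested, with the log2 of its mean CPM over the 4 guide livers against the log2 difference, guide 2 minus guide 4; coloured marks show 4 gene lists and open circles the genes with an adjusted p under 0.05. The 3 circled genes, Cyp2a4, Cyp2a5 and Spats2l, lie above 0, and most points lie around 0 with a spread that widens at low levels.

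The plot of differences by level shows where the 3 called genes sit among all genes: the differences of weakly expressed genes scatter widely, and Cyp2a4 and Cyp2a5 lie above nearly all genes of a similar level. Interferon-stimulated genes lie mostly above 0 and acute-phase genes mostly below.

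Cyp2a4 and Cyp2a5 rose together with guide 2. Both encode hepatic cytochromes P450 of the 2A subfamily, the first active on steroids and the second a coumarin 7-hydroxylase, and both sit in the Cyp2 cluster on chromosome 7. The stretch upstream of the 2 genes is shown because it is nearly the same in both. It lies before the gene starts and does not bear on how reads were assigned. The 250 bases before the RefSeq start of Cyp2a4 (chr7:26306942-26307191, plus strand, GRCm38.p6) and of Cyp2a5 (chr7:26835089-26835338, plus strand) follow, 5′ to 3′, with the bases that differ between them in capitals.
Cyp2a4: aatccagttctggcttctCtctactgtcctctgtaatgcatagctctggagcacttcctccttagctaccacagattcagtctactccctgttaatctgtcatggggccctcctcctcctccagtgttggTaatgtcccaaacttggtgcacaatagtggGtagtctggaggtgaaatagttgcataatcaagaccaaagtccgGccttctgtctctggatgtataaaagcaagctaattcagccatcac
Cyp2a5: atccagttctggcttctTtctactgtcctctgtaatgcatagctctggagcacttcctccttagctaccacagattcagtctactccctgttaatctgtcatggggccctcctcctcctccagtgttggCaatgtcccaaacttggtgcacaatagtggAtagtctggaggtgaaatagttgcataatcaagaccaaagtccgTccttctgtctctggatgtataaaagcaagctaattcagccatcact
The stretches matched at 245 of 250 bases (98.0%), with 4 substitutions and 1 base of each left unaligned at an end. Their transcripts were less alike: of 1664 windows of 75 bases in the Cyp2a4 transcript, the length of 1 read, 349 (21.0%) were also found in Cyp2a5, which is 18% of the 1939 windows of the latter. A read from those windows cannot by itself be assigned to 1 of the 2 genes, although the read from the other end of its fragment may place it. How the counting treated such reads is not given in the sources used here. No window was shared with Cyp2a12 or Cyp2a22.

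Cyp2a4 (chr7:26307192-26315088, plus strand) lay at 19.3 and 32.3 CPM in the guide 4 livers and at 293 and 199 CPM in the guide 2 livers. The old controls held 23.7, 37.8 and 40.1 CPM and the young controls 37.6, 25.5 and 40.6 CPM. Both guide 2 livers were far above all 8 others, and the guide 4 livers lay among or just below the controls. The means were 246 ± 66.3 CPM (SD, n = 2) and 25.8 ± 9.20 CPM (SD, n = 2), a fitted ratio of 9.52 and a log2 difference of 3.25 (SE 0.36, adjusted p = 0.0295 in edgeR's quasi-likelihood test).

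Cyp2a5 (chr7:26835339-26843264, plus strand) lay at 253 and 382 CPM with guide 4 and at 1514 and 1413 CPM with guide 2. The old controls held 401, 450.2 and 460.0 CPM and the young controls 559, 385 and 612 CPM. The guide 2 livers again stood above all others, and both guide 4 livers were below every control. The means were 1464 ± 71.4 CPM (SD, n = 2) and 317 ± 90.9 CPM (SD, n = 2), a fitted ratio of 4.61 and a log2 difference of 2.21 (SE 0.26, adjusted p = 0.0334). Because reads may have moved between the genes, their sum was also taken: 272.3 and 413.9 CPM for Cyp2a4 and Cyp2a5 together with guide 4, and 1807 and 1613 CPM with guide 2. The sum in the 6 controls ranged from 410.5 to 652.7 CPM.

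Other members of the Cyp2 cluster were mostly higher in value with guide 2, by less. Of 10 tested members, 6 had an unadjusted p under 0.05 in the higher direction, Cyp2a4 and Cyp2a5 included, and 0 in the lower. Over all genes tested the shares were 2.23% and 2.17%. The median log2 difference was 1.09 against -0.0035 over all genes tested, or 0.66 without guide 2 liver 1. Cyp2a12, a relative in the same cluster, lay at 461 and 388 CPM with guide 4, at 735 and 716 CPM with guide 2, at 363, 486 and 490.2 CPM in the old controls and at 635, 764 and 584 CPM in the young. The guide 2 livers were thus above the guide 4 livers and the old controls and inside the young range, with a log2 difference of 0.77 (SE 0.21, adjusted p = 0.515). Cyp2g1, a P450 best known from olfactory mucosa, lay at 0.523 and 1.35 CPM with guide 4 and at 5.46 and 5.65 CPM with guide 2, above the highest control at 3 CPM (log2 difference 2.53, adjusted p = 0.451). Cyp2f2, a periportal P450, lay at 902 and 636 CPM with guide 4 and at 1497 and 1142 CPM with guide 2, where the young controls ranged from 1791 to 2679 CPM. Cyp2b10, the classic target of the receptor CAR, lay at 7.5 and 2.62 CPM with guide 4 and at 17.0 and 6.99 CPM with guide 2, so the arms overlapped, and Cyp2b9, a female-biased gene, was lower in value in 1 guide 2 liver (2.97 CPM) and close to the guide 4 values of 11 and 31.3 CPM in the other (22.1 CPM).

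**Figure D2:**
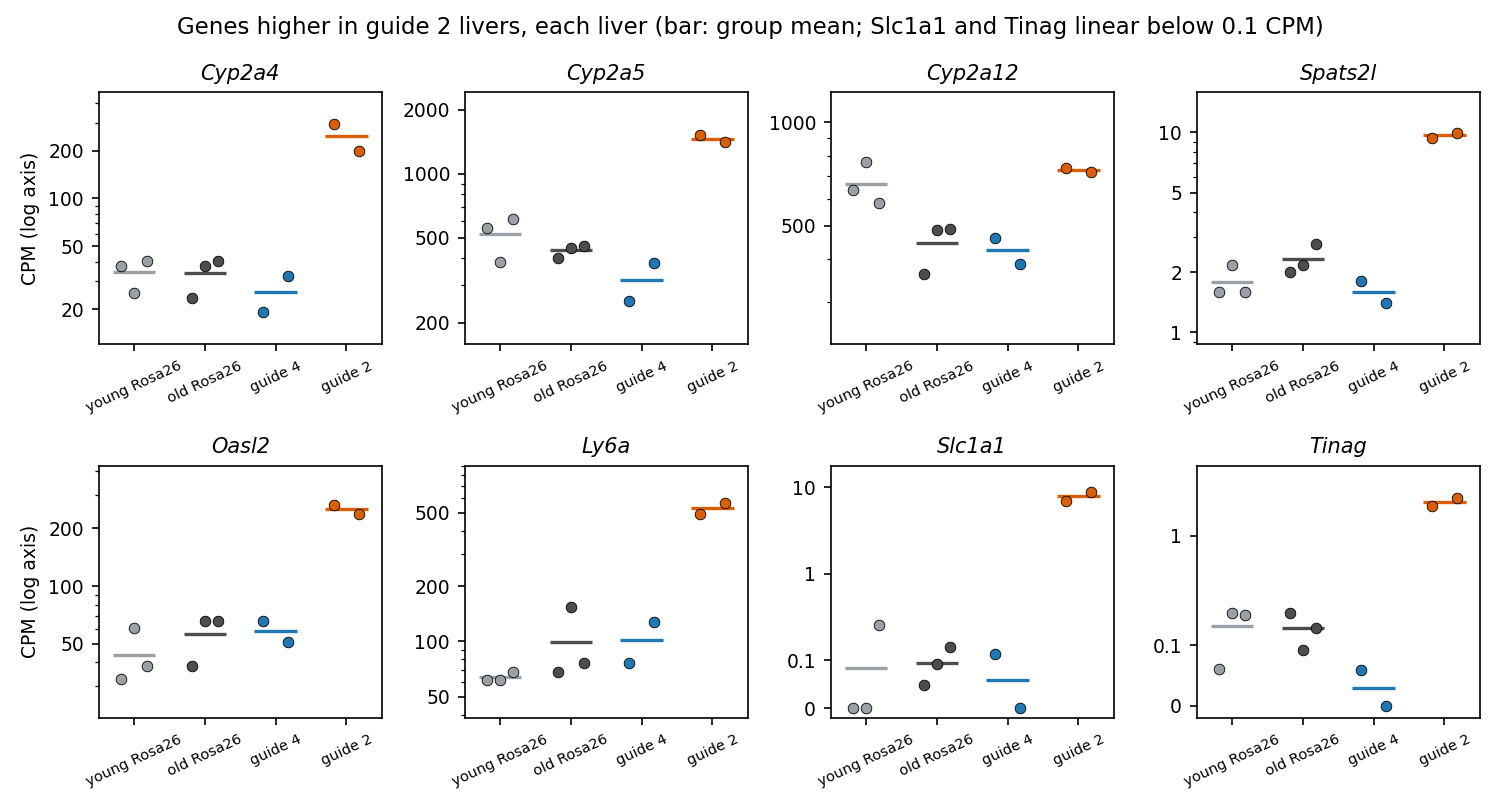
Level in CPM on a log axis (linear below 0.1 CPM for Slc1a1 and Tinag) of 8 genes in each of the 10 livers, grouped as young control, old control, guide 4 and guide 2, 1 point a liver. For 7 of these genes both guide 2 livers sit above all 8 others, whereas for Cyp2a12 they overlap the young controls.

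The plot of single livers puts the Cyp2a genes beside Spats2l, the interferon-stimulated Oasl2, the surface protein gene Ly6a and a pair of genes that were close to absent elsewhere, Slc1a1 and Tinag. In each panel the 2 guide 2 points lie close together compared with their distance from the guide 4 points.

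Spats2l (chr1:57774102-57948398, plus strand) was the third gene that rose with guide 2. It lay at 1.80 and 1.40 CPM with guide 4 and at 9.41 and 9.96 CPM with guide 2, and the 6 controls ranged from 1.59 to 2.76 CPM. The guide 2 livers were above every other liver and close to each other. The means were 9.69 ± 0.388 CPM (SD, n = 2) and 1.6 ± 0.288 CPM (SD, n = 2), a fitted ratio of 6.07 and a log2 difference of 2.60 (SE 0.29, adjusted p = 0.0295).

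Slc1a1 encodes a glutamate and cysteine transporter and Tinag an extracellular matrix protein, both best known from kidney. Slc1a1 (chr19:28835135-28913960, plus strand) had 2 and 0 counts in the guide 4 livers, 149 and 153 in the guide 2 livers and between 0 and 4 in the controls. Its summed ratio of guide 2 to guide 4 was 158, with a 95% counting interval of 43.3 to 1309, and its adjusted p was 0.0646 between guides and 0.0273 against the old controls. Tinag had 1 and 0 counts with guide 4 and 40 and 38 with guide 2, against 1 to 4 in the controls, a ratio of 81.5 (counting interval 14.2 to 3261) and an adjusted p of 0.0646. Apela, which encodes a peptide ligand of the apelin receptor, had 0 and 1 counts with guide 4 and 39 and 83 with guide 2, against 0 to 6 in the controls (ratio 128, counting interval 22.5 to 5077, adjusted p = 0.187). All 3 were at or under about 0.4 CPM outside the guide 2 livers.

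Ly6a and Ly6d encode small GPI-anchored surface proteins of the Ly6 family. Ly6a, known as Sca-1 and induced by interferons, lay at 76.7 and 128 CPM with guide 4 and at 491 and 565 CPM with guide 2. The controls reached 154 CPM in 1 old liver and lay between 61.5 and 76.1 CPM in the others. Its log2 difference between guides was 2.37 (adjusted p = 0.115), and against the old controls it rose with guide 2 by 2.41 (adjusted p = 0.0477). Ly6d lay at 6.04 and 6.58 CPM with guide 4 and at 29.0 and 11.8 CPM with guide 2, against 2.01, 2.32 and 3.48 CPM in the old controls. It rose with guide 2 against the old controls by 2.97 on the log2 scale (adjusted p = 0.0273), and between the guides its difference of 1.69 did not pass (adjusted p = 0.362).

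Interferon-stimulated genes were higher in value with guide 2 as a group, and 1 of them, Spats2l, passed the test between the guides. Of 35 listed genes, all tested, 34 had a positive difference and the median was 0.79 on the log2 scale, against -0.0035 over all genes. In 17 of them (48.6%) the unadjusted p was under 0.05 in the higher direction and in 0 in the lower, where 2.23% and 2.17% of all genes did so. In 30 the guide 2 livers lay above both guide 4 livers (20.5% of all genes) and in 19 they lay above all 8 other livers (3% of all genes). Median differences from the shared old controls were 0.96 with guide 2 and 0.14 with guide 4. Liver by liver, the list's median against the mean of the old controls was 1.03 and 1.02 in the guide 2 livers, 0.37 and -0.04 in the guide 4 livers, and -0.30, -0.07 and 0.29 in the old controls themselves. The young controls gave -0.16, 0.68 and 0.16, so young control 2 lay between the other controls and the guide 2 livers. Leaving out 1 liver at a time, the number of members with an unadjusted p under 0.05 in the higher direction lay between 12 and 21, and the median ranged from 0.59 to 1.13. DESeq2 called 10 of the 35.

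Promoter windows of 6 of these genes are shown to display the response element where its letters were found. The 60-base windows below, 5′ to 3′ on the strand of the gene, come from the 250 bases before the RefSeq start (GRCm38.p6), and capitals mark the element, searched on both strands as 2 copies of GAAA with any 2 bases between them, with overlapping matches written as 1 run. They are Ifit1 (chr19:34640778-34640837, plus strand), Ifit3 (chr19:34583381-34583440, plus), Ifit3b (chr19:34607777-34607836, plus), Oas1a (chr5:120907526-120907585, minus), Oas1g (chr5:120887614-120887673, minus) and Rsad2 (chr12:26456539-26456598, minus).
Ifit1: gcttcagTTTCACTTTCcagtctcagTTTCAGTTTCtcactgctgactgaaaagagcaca
Ifit3: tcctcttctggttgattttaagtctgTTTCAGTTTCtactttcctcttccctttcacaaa
Ifit3b: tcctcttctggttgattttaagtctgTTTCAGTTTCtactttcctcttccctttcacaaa
Oas1a: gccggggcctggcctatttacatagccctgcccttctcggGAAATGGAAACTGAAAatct
Oas1g: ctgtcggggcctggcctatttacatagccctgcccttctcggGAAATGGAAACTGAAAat
Rsad2: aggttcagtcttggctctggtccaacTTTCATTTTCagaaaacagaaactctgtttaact
The windows of Ifit3 and Ifit3b are the same, as are most bases of Oas1a and Oas1g, and reads of such close copies may have been split between them. The windows of Ifit3 and Ifit3b lie inside the gene spans, which begin at chr19:34583119 and chr19:34607530, because the start used lies within the span. That of Oas1a overlaps its span in part. The motif was present in 14 of the 25 listed genes that have a promoter in the RefSeq table (56.0%) and in 821 of 27025 promoters overall (3.04%). No match lay in the 250 bases searched for Spats2l, Oasl2, Ifit2, Ifi44, Oasl1, Irf7 or Cmpk2. The Spats2l window (chr1:57845321-57845570) lies inside its gene span, before an internal start, so the sequence before that span was not searched. The windows of Oasl2, Ifit2, Oasl1, Irf7 and Cmpk2 overlap their gene spans in part. Other starts of these genes were not searched. Among genes with an unadjusted p under 0.05, the motif was present in 17 of 228 promoters of genes higher with guide 2 (7.46%) and in 6 of 222 of those lower (2.7%), where 2.9% of the tested genes held it. The 17 include the listed genes Ifit1, Ifit3, Ifit3b, Oas1a, Oas1g, Oas3, Rsad2 and Gbp3, so this share is not separate from the list. The motif was present in 29 of 326 promoters (8.9%) of genes in which both guide 2 livers lay above the 8 others, a set that also holds listed genes. It was present in 0 of 9 promoters of the Cyp2 cluster. A match describes the letters in this window and not the binding of a factor.

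The Oas genes encode the 2′-5′ oligoadenylate synthetases that sense viral double-stranded RNA. Oasl2 (chr5:114896926-114912245, plus strand) lay at 66.0 and 51.0 CPM with guide 4 and at 266 and 237 CPM with guide 2, and the 6 controls ranged from 32.8 to 65.4 CPM. The log2 difference between guides was 2.11 (SE 0.33, adjusted p = 0.115), and against the old controls Oasl2 rose by 2.16 with guide 2 (adjusted p = 0.0439). Oas1g lay at 26.2 and 22.2 CPM with guide 4 and at 76.7 and 88.6 CPM with guide 2, with 13.1 to 28.9 CPM in the controls (log2 difference 1.77, adjusted p = 0.115). Oas1a lay at 40.8 and 34.6 CPM with guide 4 and at 100.2 CPM in both guide 2 livers (log2 difference 1.41, adjusted p = 0.22). In all 3 genes the guide 4 livers were within the range of the controls or within 1 CPM of it, and the guide 2 livers were above it.

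The Ifit genes encode proteins that bind foreign RNA ends. Ifit3 lay at 106 and 72.3 CPM with guide 4 and at 419 and 408 CPM with guide 2, with 55.9, 72.8 and 104 CPM in the old controls and 60.3, 151 and 77 CPM in the young (log2 difference 2.21, SE 0.43, adjusted p = 0.225). Ifit3b lay at 34.4 and 26.2 CPM with guide 4 and at 153 and 136 CPM with guide 2. Ifit2 lay at 19.3 and 15.2 CPM with guide 4 and at 60.4 and 63.0 CPM with guide 2 (log2 difference 1.84, adjusted p = 0.187). Guide 2 livers were above all 8 others in these 3 genes. Ifit1 was different in that young control 2, at 259 CPM, lay between the guide 2 livers at 227 and 281 CPM, while the guide 4 livers held 127 and 73.0 CPM.

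Genes beyond these families had the same direction. Mx1 is named for a GTPase that blocks viral nucleocapsids, but RefSeq gives this mouse gene as a transcribed pseudogene. Its transcript lay at 14.4 and 12.3 CPM with guide 4 and at 42.8 and 58.7 CPM with guide 2 (log2 difference 1.93, adjusted p = 0.263). Rsad2, the antiviral enzyme viperin, lay at 51.7 and 34.2 CPM with guide 4 and at 189 and 162 CPM with guide 2, with 165 CPM in young control 2. Gbp9, a guanylate-binding protein gene, lay at 7.5 and 8.41 CPM with guide 4 and at 21.4 and 22.2 CPM with guide 2 (log2 difference 1.45, adjusted p = 0.0715). Slfn4, a Schlafen gene of myeloid cells, lay at 4.77 and 6.28 CPM with guide 4 and at 22.3 and 21.0 CPM with guide 2 (log2 difference 1.96, adjusted p = 0.194). For Gbp9 and Slfn4, which are not among the 35, the guide 2 livers were also above all controls.

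Most factors and signals upstream of these genes differed less, and Irf7 differed about as much as the list. Irf7, which amplifies the type I interferon response, lay at 352 and 288 CPM with guide 4 and at 494 and 568 CPM with guide 2. Its log2 difference was 0.73, against a list median of 0.79. Irf9 and Stat2, which act in the same complex, differed by 0.02 and -0.15, and Stat2 was the 1 listed gene with a negative difference. Of 8 tested interferon ligands and receptors, 0 had an unadjusted p under 0.05 in either direction, with -0.04 for Ifnar1, -0.03 for Ifnar2 and -0.01 for Ifngr1. The ligand Ifnb1 had at most 3 counts in any liver, Ifng at most 6, and Ifnl2 and Ifnl3 had 0 counts in all 10. Of 20 tested sensors and adaptors, 0 had an unadjusted p under 0.05. For 4 of the 20 (Ifih1, Dhx58, Tlr3 and Zbp1) the guide 2 livers lay above the 8 others, a larger share than the 3% of all genes. Ifih1, the RNA sensor MDA5 and itself interferon-induced, lay at 70.7 and 43.1 CPM with guide 4 and at 97.1 and 98.4 CPM with guide 2, while Mavs, its adaptor, differed by -0.11 and Tmem173, the adaptor STING, by -0.39.

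**Figure D3:**
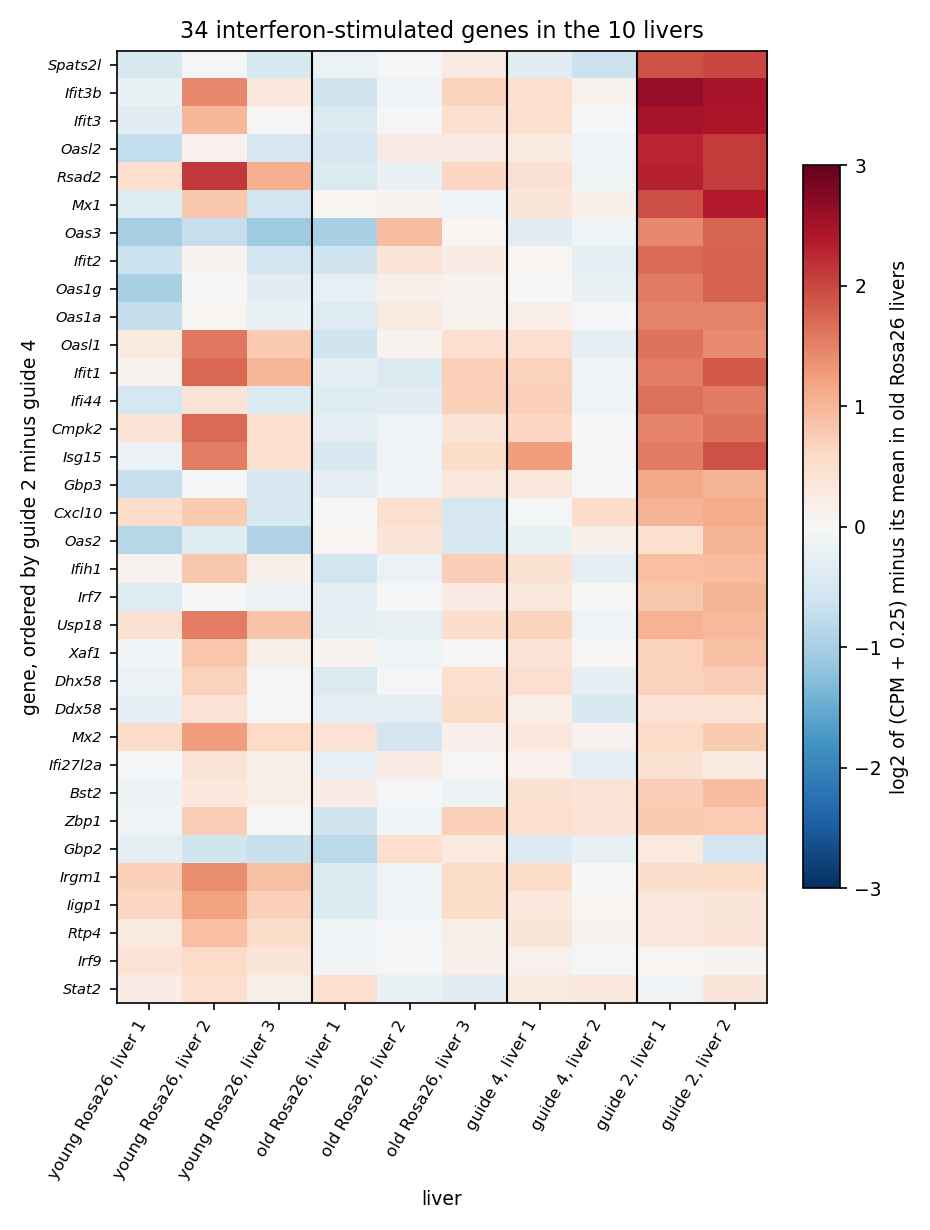
Heat map of 34 of the 35 interferon-stimulated genes in rows and the 10 livers in columns, coloured by log2(CPM + 0.25) minus the mean of the 3 old controls for the same gene. The guide 2 columns are red in most rows, with medians over all 35 genes of 1.03 and 1.02, and the guide 4 columns (0.37 and -0.04) resemble those of the old controls; young control 2 (0.68) is the reference liver nearest to guide 2.

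The heat map of interferon-stimulated genes shows that the group's difference is carried by many rows rather than by a few, and that the 2 guide 2 livers have the same rows in common. Rows such as Iigp1, an immunity-related GTPase gene with a log2 difference of 0.17, stay close to the guide 4 livers.

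Genes of MHC class I and the immunoproteasome, which present peptides to CD8 T cells and respond to interferon, were slightly higher in value with guide 2. All 16 tested members had a positive difference with a median of 0.30, 2 had an unadjusted p under 0.05 (0 without guide 4 liver 2 or guide 2 liver 1, 4 without old control 1), and in 10 the guide 2 livers lay above all 8 others, against 2.23% and 3% of all genes. Their summed level ranged from 8529 to 8696 CPM with guide 4 and from 10058 to 10341 CPM with guide 2. H2-T23, the nonclassical Qa-1 gene, lay at 351 and 328 CPM with guide 4 and at 496 and 462 CPM with guide 2, above the controls at 263 to 333 CPM (log2 difference 0.50, SE 0.17, adjusted p = 0.888). H2-K1, a classical heavy chain, lay at 2215 and 2187 CPM with guide 4 and at 2789 and 2775 CPM with guide 2, and B2m, the light chain, differed by 0.08. MHC class II genes, a mark of antigen-presenting cells, did not follow: of 12 tested, 0 had an unadjusted p under 0.05, and the median was -0.54, or 0.016 without guide 4 liver 2.

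Targets of NRF2 were higher in value with guide 2, and none passed the test after adjustment. Of 20 tested, 19 had a positive difference, the median was 0.52, and 7 had an unadjusted p under 0.05 in the higher direction and 0 in the lower. In 15 the guide 2 livers lay above both guide 4 livers, and in 2 above all 8 others, where the shares over all genes were 2.23% for an unadjusted p under 0.05 in the higher direction, 20.5% and 3%. The list's median against the old control mean was 0.48 and 0.53 in the guide 2 livers, -0.07 and -0.01 in the guide 4 livers, and 0.71, 1.07 and 0.27 in the young controls. In this median, 2 of the 3 young controls lay above both guide 2 livers. Leaving out 1 liver at a time, 5 to 9 members had an unadjusted p under 0.05, and DESeq2 called 4.

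Nqo1, the quinone oxidoreductase that serves as the standard NRF2 reporter, was 1 of the 2 exceptions. It lay at 10.6 and 15.6 CPM with guide 4 and at 38.8 and 30.1 CPM with guide 2, with 13.0 to 21.0 CPM in all 6 controls (log2 difference 1.39, SE 0.27, adjusted p = 0.225). The other was Abcc4, an exporter of bile acids and conjugates that is also a CAR target, at 2.03 and 3.75 CPM with guide 4 and at 11.9 and 8.74 CPM with guide 2, with at most 5.32 CPM in the controls (log2 difference 1.82, adjusted p = 0.225).

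The glutathione S-transferases behaved differently with respect to the young livers. Gsta1 lay at 51.2 and 51.7 CPM with guide 4 and at 199 and 153 CPM with guide 2, with 38.4, 32.4 and 50.4 CPM in the old controls and 110, 218 and 93.1 CPM in the young (log2 difference 1.77, adjusted p = 0.272). Gstm3 lay at 177 and 155 CPM with guide 4 and at 759 and 484 CPM with guide 2, with 163 to 265 CPM in the old controls and 248 to 590 CPM in the young (log2 difference 1.91, adjusted p = 0.263). Gstm1, the main mu-class enzyme, lay at 3010 and 2792 CPM with guide 4 and at 6320 and 5334 CPM with guide 2 (log2 difference 1.01, adjusted p = 0.835). In all 3 the guide 4 livers were at the level of the old controls and the guide 2 livers at or near that of the young. These families have close copies, and reads may have been split between members. Hmox1, heme oxygenase, was the 1 target with a negative difference (-0.18), and the gene of NRF2 itself, Nfe2l2, differed by 0.20.

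Cbr3, a carbonyl reductase that was not in the list, had the same pattern at a larger size. It lay at 2.62 and 2.96 CPM with guide 4 and at 25.0 and 17.4 CPM with guide 2, with 2.65, 2.46 and 3.81 CPM in the old controls and 5.76, 15.9 and 6.91 CPM in the young (log2 difference 2.92, adjusted p = 0.115). The antioxidant response element, searched as TGACNNNGC on both strands of the 250 bases upstream, was present in 5 of 16 NRF2 target promoters (31.2%), in 10.1% of all promoters and in 10.1% of the promoters of genes that were higher with guide 2 at an unadjusted p under 0.05.

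Targets of the other xenobiotic receptors gave smaller differences. The share of all genes with an unadjusted p under 0.05 in the higher direction was 2.23%. Of 18 tested CAR targets 3 had an unadjusted p under 0.05 in the higher direction (Abcc4, Gstm3 and the glucuronosyltransferase gene Ugt2b35) with a list median of 0.17. Of 12 PXR targets 2 did so, with a median of 0.38: Cyp3a59 (28.1 and 22 CPM with guide 4, 65.3 and 41.1 CPM with guide 2) and the drug exporter gene Abcb1a (2.5 and 2.70 CPM with guide 4, 7.01 and 3.96 CPM with guide 2). Of 6 AhR targets 2 did so, Nqo1 and Cyp1a1, the latter at 1.28 and 1.35 CPM with guide 4 and at 1.93 and 3.61 CPM with guide 2. These small counts moved when 1 liver was left out. PXR targets gave 0 without guide 4 liver 2, 1 without guide 4 liver 1 or guide 2 liver 1 and 4 without old control 3, and the CAR median was 0.024 without guide 2 liver 1 and 0.033 without guide 4 liver 1. AhR targets gave 1 without either guide 4 liver or guide 2 liver 2.

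Periportal hepatocyte genes leaned upwards with guide 2 and pericentral genes did not. Of 25 tested periportal genes 4 had an unadjusted p under 0.05 in the higher direction and 0 in the lower, with a median of 0.26 (2 without guide 4 liver 2 or guide 2 liver 1, 7 without old control 1 or old control 3), and of 25 pericentral genes 0 did so in either direction, with a median of -0.02. Over all genes tested the shares were 2.23% in the higher direction and 2.17% in the lower. The 2 lists were not tested against each other. Etnppl, which breaks down phosphoethanolamine, lay at 44.6 and 38.0 CPM with guide 4 and at 91.8 and 92.2 CPM with guide 2, with 43.5, 42.9 and 47.0 CPM in the old controls and 91.5, 146 and 116 CPM in the young (log2 difference 1.16, adjusted p = 0.187). Cdh1, E-cadherin, lay at 10.9 and 9.90 CPM with guide 4 and at 20.9 and 35.6 CPM with guide 2, with 12.3 to 21.2 CPM in the old controls. Sds, the serine dehydratase gene, lay at 168 and 175 CPM with guide 4 and at 342 and 236 CPM with guide 2.

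No gene fell with guide 2 after adjustment, and the lower side of the comparison was made up of genes with unadjusted p-values only. Spsb4, an adaptor of a ubiquitin ligase, had the smallest p on this side. It lay at 5.23 and 4.88 CPM with guide 4 and at 1.22 and 1.75 CPM with guide 2, with 2.54 to 3.49 CPM in the 6 controls (log2 difference -1.77, SE 0.28, adjusted p = 0.115). Here the guide 4 livers were above and the guide 2 livers below every control, so both arms contribute. Mgll, monoacylglycerol lipase, lay at 181 and 151 CPM with guide 4 and at 94.1 and 86.9 CPM with guide 2, with 114, 108 and 133 CPM in the old controls and 199, 193 and 208 CPM in the young (log2 difference -0.87, adjusted p = 0.22). Again the old controls lay between the arms.

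Cd207 had the widest negative difference of any gene tested. It encodes langerin, a lectin of Langerhans cells that is also made by some dendritic cells and macrophages. It lay at 8.78 and 16.9 CPM with guide 4 and at 0.471 and 0.291 CPM with guide 2, with 10.9, 43.0 and 7.39 CPM in the old controls and 1.59, 2.58 and 3.23 CPM in the young (log2 difference -5.03, SE 0.96, adjusted p = 0.225). Both guide 2 livers were below all others, the young included, and against the old controls the adjusted p was 0.0687. Defining Kupffer cell genes were present in all livers, with a summed level of 698 to 1121 CPM with guide 4 and 743 to 871 CPM with guide 2. The sums were 739 to 2200 CPM in the old controls and 409 to 528 CPM in the young. Slc40a1, which was higher with guide 2, is part of the sum, while 12 of the 15 members had a negative difference between guides. Median differences from the shared old controls were -1.02 with guide 2 and -0.67 with guide 4.

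Further genes were low in both guide 2 livers. Jak3, the kinase of the common gamma chain, lay at 24.8 and 29.6 CPM with guide 4 and at 16 and 12.9 CPM with guide 2, below the controls at 24.7 to 32.5 CPM (log2 difference -0.91, adjusted p = 0.245). Nrp2, a neuropilin, lay at 14.5 and 15.6 CPM with guide 4 and at 8.85 and 6.12 CPM with guide 2, below the controls at 10.3 to 19.9 CPM. Aatk, a kinase gene, lay at 11.2 and 7.63 CPM with guide 4 and at 3.53 and 4.37 CPM with guide 2, and Asns, asparagine synthetase, at 1.05 and 0.654 CPM with guide 4 and at 0.235 and 0.233 CPM with guide 2. The imprinted gene Peg10 lay at 4.36 and 3.44 CPM with guide 4 and at 0.942 and 1.69 CPM with guide 2, below the controls, as did Pcp4l1, at 5.23 and 5.58 CPM with guide 4 and at 1.27 and 1.40 CPM with guide 2. Mup19, a major urinary protein gene with near-identical copies, lay at 325 and 115 CPM with guide 4 and at 48.8 and 67.1 CPM with guide 2, with 121 to 326 CPM in the old controls and 806 to 1138 CPM in the young.

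Acute-phase genes were lower in value with guide 2. Of 32 tested, 30 had a negative difference, the median was -0.67, 4 had an unadjusted p under 0.05 in the lower direction and 0 in the higher (2.17% and 2.23% of all genes), and in 21 the guide 2 livers lay below both guide 4 livers (18.2% of all genes). The median difference from the shared old controls was -0.64 with guide 2 and -0.07 with guide 4. By liver, the list's median against the old control mean was -0.32 and -0.65 with guide 2 and -0.10 and 0.22 with guide 4. The old controls themselves gave -0.54, -0.23 and 0.83, so old control 1 lay between the guide 2 livers. Hp, haptoglobin, lay at 6053 and 6668 CPM with guide 4 and at 4066 and 3615 CPM with guide 2, with 4575, 4202 and 5767 CPM in the old controls and 5506, 5950 and 5275 CPM in the young (log2 difference -0.73, SE 0.21, adjusted p = 0.609). Saa1, serum amyloid A, lay at 99.9 and 257 CPM with guide 4 and at 47.1 and 31.8 CPM with guide 2, with 50.6, 165 and 438 CPM in the old controls and 1062, 1484 and 1085 CPM in the young (log2 difference -2.18, SE 0.79, adjusted p = 0.898). For both genes the guide 2 livers were the lowest 2 of the 10, while the old controls spread widely. This order held in 6 of the 32 members, against 2.68% of all genes. Its close copy Saa2 lay at 41.0 and 145 CPM with guide 4 and at 26.7 and 14.3 CPM with guide 2, and Apcs, serum amyloid P, at 139 and 208 CPM with guide 4 and at 88.5 and 90.0 CPM with guide 2. The counts depended on single livers: without guide 4 liver 2 or without guide 2 liver 2, 1 member had an unadjusted p under 0.05 in the lower direction, without old control 1 there were 9, and without old control 3 there were 19. The signals above these genes differed by -0.43 for Stat3, -0.91 for the feedback inhibitor Socs3 and -0.15 for the receptor gene Il6ra, and Il6 had at most 5 counts in any liver.

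Genes of the unfolded protein response were also lower in value with guide 2, through a single guide 4 liver. Of 22 tested, 8 had an unadjusted p under 0.05 in the lower direction and 0 in the higher, against 2.17% and 2.23% of all genes, with a median of -0.55. Without guide 4 liver 1 there was 1 and the median was -0.16, without guide 4 liver 2 there were 12, and without either guide 2 liver 3. Hspa5, the chaperone BiP, lay at 2304 and 735 CPM with guide 4 and at 661 and 549 CPM with guide 2, with 505, 742 and 1282 CPM in the old controls and 1916, 2807 and 2744 CPM in the young (log2 difference -1.33). Creld2, an endoplasmic reticulum stress protein, lay at 352 and 70.4 CPM with guide 4 and at 36.8 and 34.1 CPM with guide 2, with 33.7, 40.1 and 73.2 CPM in the old controls and 157, 293 and 268 CPM in the young (log2 difference -2.57, adjusted p = 0.451). In both genes guide 4 liver 1 was at or above young levels while guide 4 liver 2 and both guide 2 livers were among or near the old controls. Derl3, a gene of protein disposal from the endoplasmic reticulum, had the same order at 53 and 10.3 CPM with guide 4 and at 2.21 and 1.92 CPM with guide 2. Of the genes around ATF4, the transcription factor genes Atf4 and Ddit3 differed by -0.02 and 0.38, Trib3 by 0.74 and the target gene Asns by -1.81.

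Heat shock chaperones, which refold proteins in the cytosol, had the same dependence on guide 4 liver 1. All 15 tested had a negative difference with a median of -0.48 and 3 had an unadjusted p under 0.05, and without that liver the median was -0.11 and 0 did. Without either guide 2 liver 0 did as well, with medians of -0.50 and -0.48, and without guide 4 liver 2 there were 7. The share of all genes with an unadjusted p under 0.05 in the lower direction was 2.17%. Hsp90aa1 lay at 344 and 139 CPM with guide 4 and at 117 and 119 CPM with guide 2, with 98.0, 114 and 178 CPM in the old controls. Hspb1 lay at 104 and 35.1 CPM with guide 4 and at 25.4 and 27.1 CPM with guide 2.

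PPAR alpha targets, the enzymes of fatty acid oxidation, leaned lower with guide 2 than with guide 4, and the lean depended on guide 2 liver 2. Median differences from the shared old controls were -0.05 with guide 2 and 0.29 with guide 4. By liver, the list's median against the old control mean was 0.30 and 0.36 with guide 4 and 0.23 and -0.35 with guide 2. The old controls themselves gave 0.04, -0.11 and 0.10, so both guide 4 livers lay above them. Of 28 tested, 24 had a negative difference, the median was -0.31 and 5 had an unadjusted p under 0.05 in the lower direction (2.17% of all genes). Without guide 2 liver 2 there were 0 in the lower direction and 1 in the higher, with a median of -0.055, and without guide 2 liver 1 there were 10 and the median was -0.61. Without either guide 4 liver there were 2. Cyp4a14, an omega-hydroxylase, lay at 154 and 191 CPM with guide 4 and at 96.8 and 19.5 CPM with guide 2, and Cidec, a lipid droplet protein, at 55.2 and 41.8 CPM with guide 4 and at 29.0 and 12.2 CPM with guide 2. Acadl, an acyl-CoA dehydrogenase, lay at 201 and 185 CPM with guide 4 and at 155 and 125 CPM with guide 2, below the controls at 159 to 225 CPM.

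**Figure D4:**
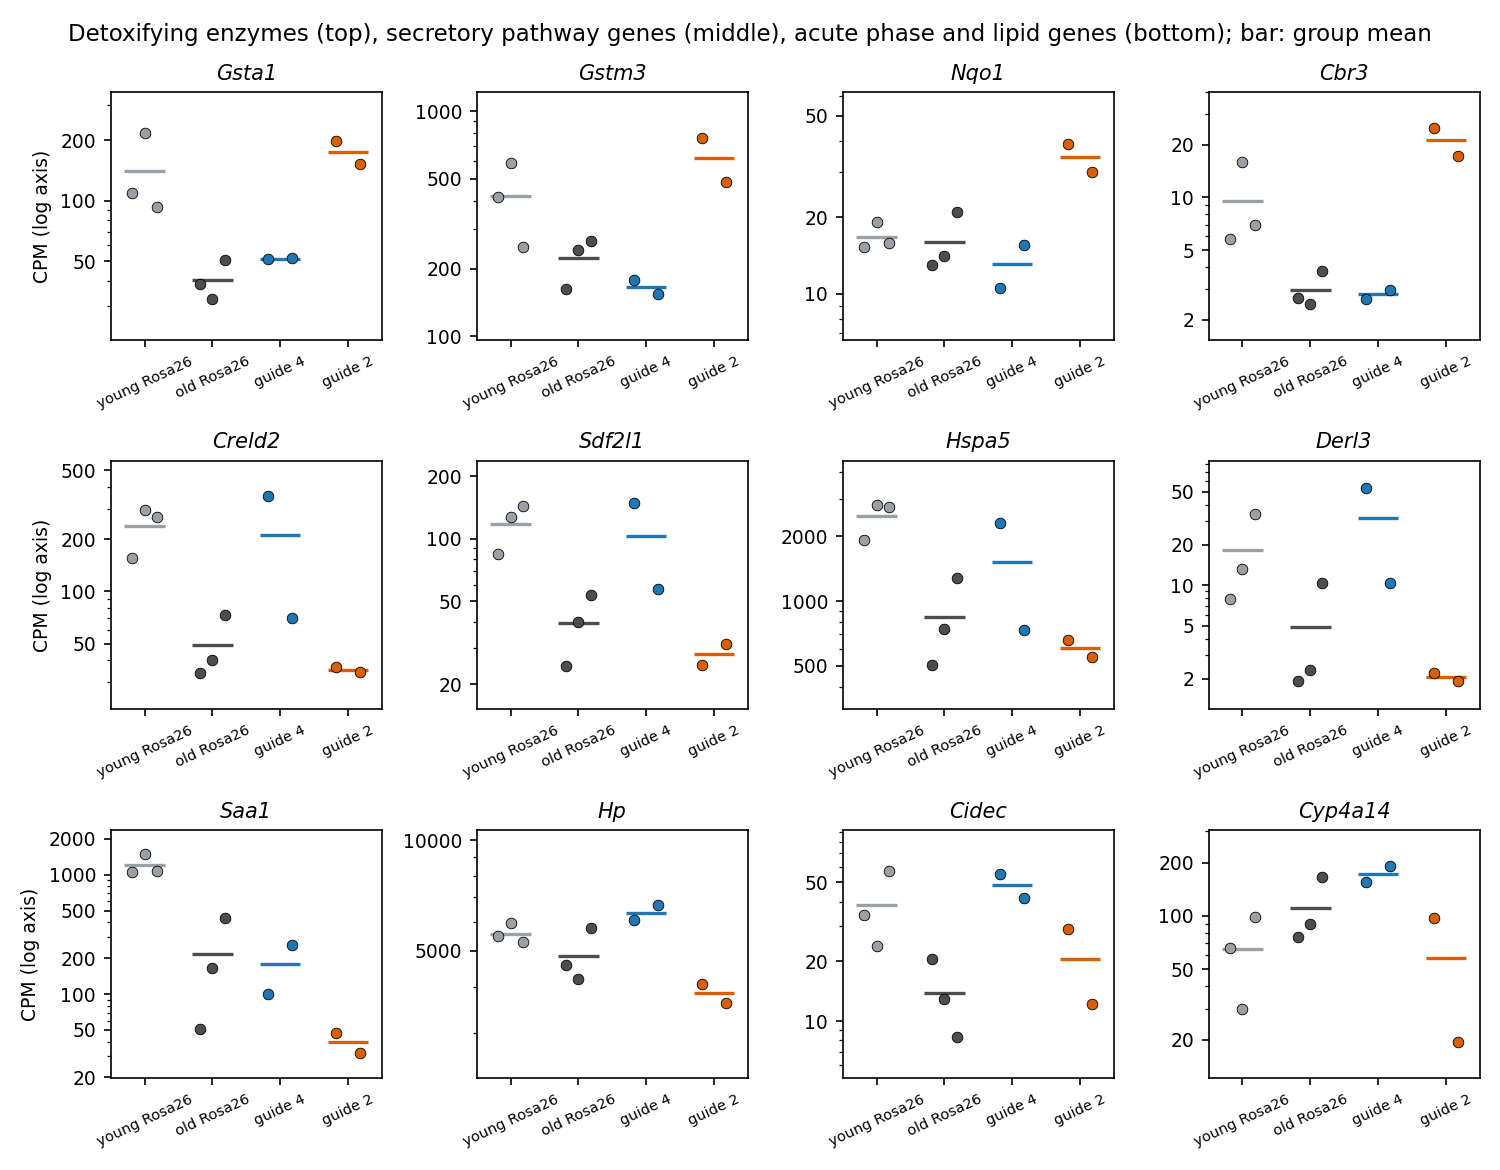
Level in CPM on a log axis of 12 genes in each of the 10 livers, in rows for NRF2-type genes (Gsta1, Gstm3, Nqo1, Cbr3), endoplasmic reticulum genes (Creld2, Sdf2l1, Hspa5, Derl3) and acute-phase or lipid genes (Saa1, Hp, Cidec, Cyp4a14), 1 point a liver. In the top row both guide 2 livers are above both guide 4 livers; in the middle row guide 4 liver 1 is apart from guide 4 liver 2 (for Creld2 352 against 70.4 CPM); in the bottom row guide 2 liver 2 has the lowest or a low value.

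The plot of these programmes separates differences shared by both livers of an arm from differences that 1 liver makes. In the NRF2-type genes the arms do not overlap, whereas in the endoplasmic reticulum genes guide 4 liver 1 lies well above guide 4 liver 2.

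Few markers of other cell types had an unadjusted p under 0.05 between the guides. Over all genes, 2.23% had one in the higher direction and 2.17% in the lower. In 18.2% of all genes both guide 2 livers lay below both guide 4 livers. Of 25 tested T and NK cell markers 1 had an unadjusted p under 0.05 in the higher direction, Klrb1c (0.291 and 0.436 CPM with guide 4, 0.847 and 1.11 CPM with guide 2), although 19 of the 25 had a negative difference, the median was -0.49 and in 10 both guide 2 livers lay below both guide 4 livers. Their summed level ranged from 50.5 to 80.4 CPM with guide 4 and from 61.4 to 68.6 CPM with guide 2. A large part of the guide 2 sum came from the chemokine gene Ccl5, which went against most of the list. It had 132 and 378 counts with guide 4 and 550 and 513 with guide 2. Of 16 markers of monocyte-derived macrophages 1 did so, Ly6c2 (2.56 and 3.10 CPM with guide 4, 10.2 and 7.40 CPM with guide 2), while 10 of the 16 had a negative difference. Their summed level was 313 to 433 CPM with guide 4 and 245 to 275 CPM with guide 2. Of 14 neutrophil markers 0 did so, with a sum of 62.9 to 111 CPM with guide 4 and 31.9 to 62.0 CPM with guide 2. The part of these cells in the interferon-stimulated values was not tested. Of 13 cholangiocyte markers 2 had an unadjusted p under 0.05 in the higher direction, with a median of 0.71 (1 without guide 4 liver 1 or guide 2 liver 2, 5 without old control 3): Sox9 (8.31 and 7.72 CPM with guide 4, 14.4 and 13.8 CPM with guide 2, and 8.69 to 14.6 CPM in the controls) and Prom1 (0.581 and 0.785 CPM with guide 4, 1.84 and 2.21 CPM with guide 2). Their summed level was 121 to 137 CPM with guide 4 and 162 to 216 CPM with guide 2.

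**Figure D5:**
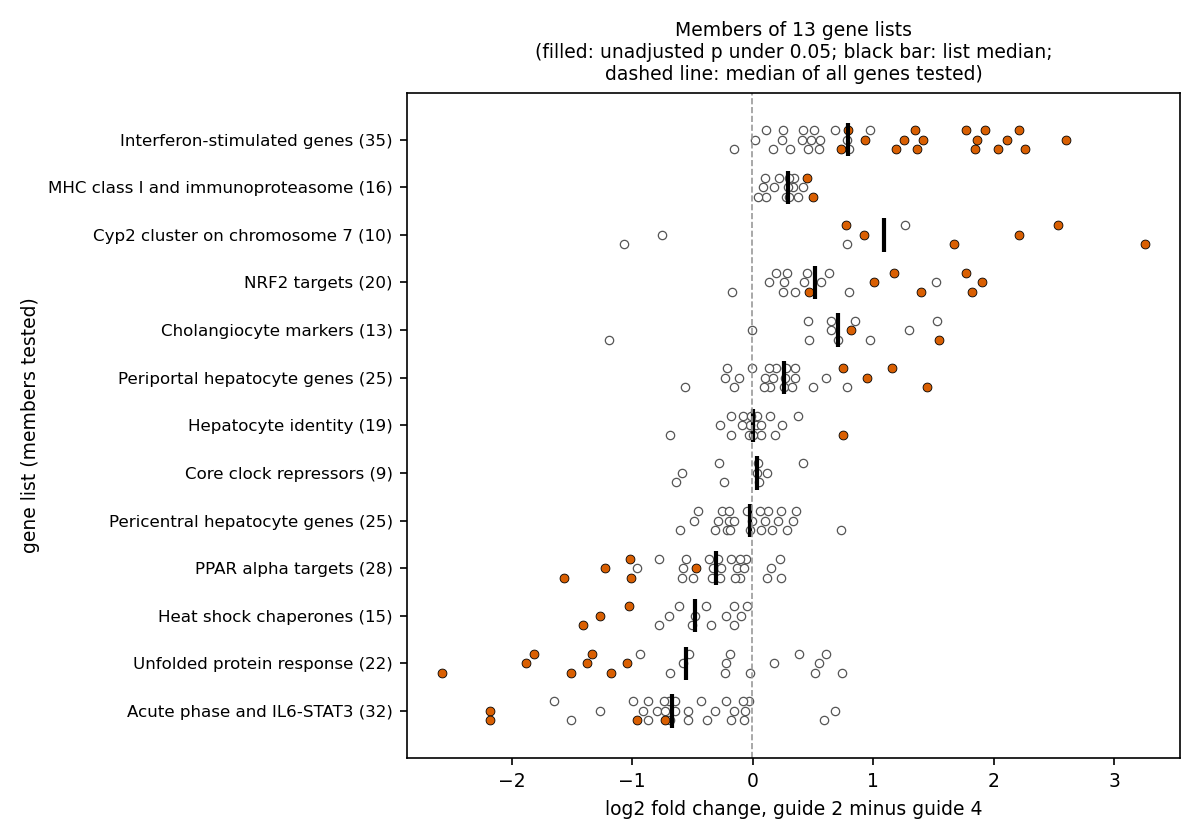
Log2 difference, guide 2 minus guide 4, of every tested gene in 13 lists, 1 point a gene with the list's median as a bar, beside the median of all genes tested at -0.0035. The interferon-stimulated genes (median 0.79) and NRF2 targets (0.52) lie mostly above 0, and the acute-phase genes (-0.67), unfolded protein response genes (-0.55) and heat shock chaperones (-0.48) mostly below.

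The plot of lists sets these groups on 1 scale. The members of the interferon and acute-phase lists were chosen for their known function, but the lists were put together with results from these livers known, and their medians carry no test.

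The guide 4 livers stood apart from all 8 others in a small number of genes. Fam131c, a gene of unsettled function, lay at 5.46 and 5.45 CPM with guide 4, at 2.07 and 2.86 CPM with guide 2 and at 2.03 to 3.39 CPM in the controls. Sema5b, a semaphorin, lay at 5.41 and 5.45 CPM with guide 4 and at most at 3.39 CPM elsewhere, and Lipg, endothelial lipase, at 13.0 and 12.6 CPM with guide 4 and at most at 8.90 CPM elsewhere. On the lower side, Cav1, caveolin, lay at 1.51 and 1.66 CPM with guide 4 and at 4.43 and 4.14 CPM with guide 2, with 3.15 to 11 CPM in the controls. Pms1, a mismatch repair gene, lay at 2.85 and 2.83 CPM with guide 4, at 5.51 and 5.19 CPM with guide 2 and at 3.80 to 7.82 CPM in the controls, and Klf12 at 3.02 and 3.31 CPM with guide 4 and at least at 4.81 CPM elsewhere. These genes were picked for the gap between the guide 4 livers and the others, and none passed the test against guide 2 or against the old controls.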

How the data were processed

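Whole-liver RNA of 10 male mice was measured. Per the labels' protocols, libraries of polyadenylated RNA (Watchmaker mRNA kit) were read on an Element AVITI instrument, 75 bases from each end. What the authors deposited is a single table of counts, in whole reads per gene symbol and not normalized. The submitters' processing notes name mm10, FastQC 0.11.8, Trim Galore 0.4.4, STAR 2.5.3a and HOMER, with no role for each. Neither the annotation nor the strand setting is given in the sources used here, so overlapping and antisense genes and near-identical copies carry an uncertainty.

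Of 24537 symbols, 14153 passed edgeR's filterByExpr (minimum count 10, minimum total 15) and 5807 had no count. All 10 livers were fitted with 4 group coefficients and TMM factors in edgeR 4.0.16 (R 4.3.3, glmQLFit and glmQLFTest), which gave a biological coefficient of variation of 22.11%, and the contrasts between guides and of each guide with the old controls were tested with Benjamini-Hochberg adjustment over all genes. A gene was called at an adjusted p under 0.05. Alternatives used DESeq2 1.42.0, limma 3.58.1, other factors, filters and sets of livers. Values of some genes are not reported here. The fitting script was tested on simulated data. Within every group, chi-square per degree of freedom between livers was at least 21.7, beyond counting noise, which does not show that the animals were separate.

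Positions of genes come from the RefSeq gene table, which 99.6% of symbols matched, and their strands from GENCODE M21 (GRCm38). Promoter sequences are from RefSeq (GRCm38.p6), and the Cyp2a transcript sequences are from GENCODE M21. The genes named are Cd44 and Gt(ROSA)26Sor, called genes, the 12 genes in each direction with the smallest p between guides (arms not overlapping, at least 1 CPM), the 8 and 5 genes in each direction with the widest gap between the guide 2 or guide 4 livers and all others, neighbours of Cd44, and up to 5 members of each list with an unadjusted p under 0.05. Further list members and signals above a list were named for their role after their values were seen. The livers compared and the 40 gene lists were chosen with earlier results of these data known, and 2 further lists (interferon ligands and receptors, nucleic acid sensors) were added after the values were seen.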

Additional observations from a re-analysis of the deposited data

Results flagged for a closer look

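The 3 genes called between the guides are listed with the effect of each guide against the shared old controls; the difference of those effects is the guide comparison itself and no further test. For Cyp2a4 the log2 difference from the old controls was 2.86 with guide 2 and -0.39 with guide 4, a difference between guides of 3.25 (adjusted p = 0.0295 in edgeR's quasi-likelihood test). For Spats2l the values were 2.06 and -0.54, a difference of 2.60 (adjusted p = 0.0295). For Cyp2a5 they were 1.74 and -0.46, a difference of 2.21 (adjusted p = 0.0334). In all 3 genes both guide 2 livers lay above the 8 other livers.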

How the results depend on the processing

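No paired analysis was possible because replicate numbers are missing from the labels. The number of genes called between the guides was 3, and 3, 2, 3 and 3 with DESeq2-type factors, upper-quartile factors, limma voom and a stricter filter. It was 74 with DESeq2, 0 with the 7 old livers alone, 36 with the 4 guide livers alone and 10 with no filter, and from 0 to 8 when 1 liver was left out. Against the old controls, guide 2 gave 7 genes, 4 with DESeq2-type factors, 111 with DESeq2, 15 with limma voom, 25 with no filter and from 0 to 16 when 1 liver was left out. Guide 4 gave 0 genes, 1 with DESeq2 and 0 whenever 1 liver was left out. With CPM scaled to total counts, 672 genes lay above and 226 below the other 8 livers in both guide 2 livers, against 425 and 379. The log2 difference of Cd44 ranged from -0.92 to -0.30 when 1 liver was left out. Over the 110 named genes and all alternatives, 1882 values kept direction and side of the threshold, 73 newly passed it, 20 no longer passed and 1 reversed: Cish, a STAT5 target, changed from -1.32 to 1.54 without guide 4 liver 2, and to -2.20 without guide 4 liver 1. The causes were not tested. For genes near 3 counts, such as Slc1a1 with guide 4, depth limits the size of the ratio.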

Other observations

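Other gene lists held few members with an unadjusted p under 0.05 between guide 2 and guide 4. The shares over all genes were 2.23% in the higher direction and 2.17% in the lower. Of 7 clock activators, 9 clock repressors and 13 genes of the PAR bZIP outputs, 0 had an unadjusted p under 0.05, with log2 differences of -0.01 for Dbp, -0.58 for Per2 and 0.05 for Nr1d1. Of 22 male-biased genes 1 was higher with guide 2 at an unadjusted p under 0.05 and 1 lower: Cyp4a12b, at 51.4 and 59.7 CPM with guide 4 and at 101 and 115 CPM with guide 2, and C8a, a complement gene, at 729 and 709 CPM with guide 4 and at 338 and 481 CPM with guide 2. Of 21 female-biased genes there was 1 in each direction, Cyp2a4 and Cyp4a14. Of 16 genes of the growth hormone, STAT5 and IGF axis there were 0. Of 16 glucocorticoid targets there was 1 in each direction, and the lower was Mt1, a metallothionein, at 19.8 and 53.3 CPM with guide 4, 10.6 and 11.5 CPM with guide 2, 18.6 to 60.2 CPM in the old controls and 659 to 1518 CPM in the young.

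Of 23 cholesterol synthesis genes 2 were lower with guide 2 at an unadjusted p under 0.05, 18 had a negative difference, the median was -0.19 (-0.036 without guide 4 liver 1), and in 11 both guide 2 livers lay below both guide 4 livers, against 18.2% of all genes. Stard4, a sterol carrier, lay at 101 and 102 CPM with guide 4 and at 69.8 and 69.7 CPM with guide 2, below all controls (85.8 to 98.6 CPM). Of 22 lipogenesis genes 1 was higher, the desaturase gene Scd2, at 12 and 11.2 CPM with guide 4 and at 28.8 and 26.9 CPM with guide 2, while 1 old control held 29.1 CPM. Of 18 bile acid genes and 16 genes of gluconeogenesis and insulin signalling there were 0 in either direction. Of 19 hepatocyte identity genes 1 was higher, the tryptophan dioxygenase gene Tdo2, at 468 and 427 CPM with guide 4 and at 878 and 627 CPM with guide 2.

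Among dividing and stressed-cell lists, 24 cell cycle genes had a median of 0.41 with 0 at an unadjusted p under 0.05, 18 immediate early genes had 0, and of 24 p53 targets 1 was lower, Perp, at 108 and 95.6 CPM with guide 4 and at 83.5 and 66.2 CPM with guide 2. Of 15 Kupffer cell markers 1 was higher, the iron exporter gene Slc40a1, at 85.2 and 128 CPM with guide 4 and at 180.1 and 168 CPM with guide 2, although 12 of the 15 had a negative difference and the median was -0.32 (0.073 without guide 4 liver 2). Of 19 endothelial markers, 14 had a negative difference and 1 was lower at that threshold, Gpr182, at 20.7 and 18.2 CPM with guide 4 and at 14.5 and 12 CPM with guide 2. Of 20 stellate cell markers there were 0, and of 14 B and plasma cell markers 1 was lower. Of 10 erythroid and platelet markers 2 were lower, Gp1bb and the heme synthesis gene Alas2, the latter at 91.0 and 108 CPM with guide 4 and at 68.4 and 71.8 CPM with guide 2.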
